A study of Mus musculus with 4 samples.

Results

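The aminoacyl-tRNA synthetase genes, 37 of the 20089 genes in the deposited tables, were taken by name through their Ensembl identifiers: 20 whose enzymes work in the cytosol (Aars, Cars, Dars, Eprs, Farsa, Farsb, Gars, Hars, Iars, Kars, Lars, Mars, Nars, Qars, Rars, Sars, Tars, Vars, Wars and Yars), 16 whose enzymes work in mitochondria (Aars2 to Yars2, with Ears2 and Pars2), and Lars2, which was kept apart. All 37 were found, and the rule itself uses names only. RNA sequencing had been done on HT22, an immortalised mouse cell line labelled as hippocampal neurons of strain C57BL/6. Every culture had been infected with a lentivirus, either a control negative virus (called control cells) or a virus targeted against Neat1, the long noncoding RNA that scaffolds paraspeckles (called knockdown cells). Cells of each kind were kept in DMEM/F12 with serum (normal culture) or without oxygen and glucose (OGD, a culture model of ischaemia). The duration of OGD and the interval after infection are not given in the labels. Each of these 4 groups held 1 library, so no difference below has a replicate check and no test was made between groups.

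Aminoacyl-tRNA synthetases join each amino acid to its transfer RNA, the step that supplies the ribosome and sets the reading of the genetic code. Most amino acids have one enzyme for the cytosol and another, made from its own nuclear gene, for mitochondria. Gars and Kars each supply both compartments, and Qars has no separate mitochondrial gene, since mitochondria make glutaminyl-tRNA from glutamyl-tRNA with a transamidase. Several cytosolic enzymes are held in one multisynthetase complex by the scaffold proteins Aimp1, Aimp2 and Eef1e1. Many cytosolic synthetase genes are known targets of Atf4, the transcription factor of the integrated stress response, which binds the amino acid response motif.

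A library held between 17232866 and 20764430 reads assigned to genes. Levels are CPM, reads scaled to library size with TMM factors, and comparisons are log2 ratios of CPM with 0.5 CPM added; folds and their exact 95% intervals carry no added amount and cover counting error only. A gene was called higher or lower at a 2-fold ratio, a size threshold without any test, and all 37 members passed the floor of 20 reads in each comparison. Neat1 was 1.60-fold lower with its lentivirus in normal culture (193 against 121 CPM) and 1.77-fold lower under OGD (74.4 against 42.1 CPM). From the deposited FPKM, a level per length, its log2 ratio was -0.77 in normal culture and -0.29 under OGD, beside -0.68 and -0.81 from CPM. A set of 4 values always gives control then knockdown cells in normal culture, followed by control then knockdown cells under OGD. The control library in normal culture stood apart: 16 markers of mature neurons, glia, vessels and blood summed to 1855 CPM there and to 44.7, 34.8 and 258 CPM in the knockdown normal, control OGD and knockdown OGD libraries. All 16 had reads in it and 14 had at least 20, and the same held in the knockdown OGD library. In the knockdown normal library all 16 had reads and 6 had at least 20. In the control OGD library 9 had at least 20, and 2 of the 16, the glial Gfap and the endothelial Cldn5, stood at 0. Of 4 listed genes of the neuronal line, Nes, a marker of progenitors, had 1429 to 3549 reads per library. The neuronal marker Rbfox3 had 1238 reads in the control library in normal culture against 4, 10 and 89 in the others. Of the other 2 listed, Tubb3, a neuronal tubulin, was lower in both knockdown libraries (53.7, 18.9, 53.95 and 21.4 CPM) and Map2, a dendritic protein, was highest in knockdown cells under OGD (8.36, 4.14, 6.83 and 25.5 CPM).

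Per length, cytosolic synthetase transcripts were the more abundant class in every library. By the deposited FPKM, the median of the 20 cytosolic genes was 63.4, 68.8, 103 and 74.1, and that of the 16 mitochondrial genes 9.47, 8.19, 7.14 and 7.25. The cytosolic median was therefore between 6.70 times the mitochondrial one, in control cells in normal culture, and 14.4 times, in control cells under OGD. Single genes of the classes overlapped little: between 16 and 19 of the 20 cytosolic genes lay above the highest mitochondrial gene of the same library. Sars, for serine, was the highest cytosolic gene in 3 libraries (183, 179, 479 and 447 FPKM), and Kars, for lysine, stood above it in knockdown cells in normal culture (162, 188, 237 and 248 FPKM). Mars2, for mitochondrial methionine, was the lowest mitochondrial gene by FPKM in all 4 libraries at 1.80, 0.80, 0.47 and 0.47. The length that its reads and FPKM together imply was 10988 to 11159 bases. By reads (372, 185, 89 and 100) it was the lowest in none, since the fewest reads of a mitochondrial gene were 88, 135, 45 and 97. Between 869 and 14714 reads lay behind a cytosolic gene in 3 of the libraries, with Wars at 489 in the fourth, and between 45 and 942 behind a mitochondrial gene, so the mitochondrial ratios carry the wider counting intervals.

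**Figure D1:**
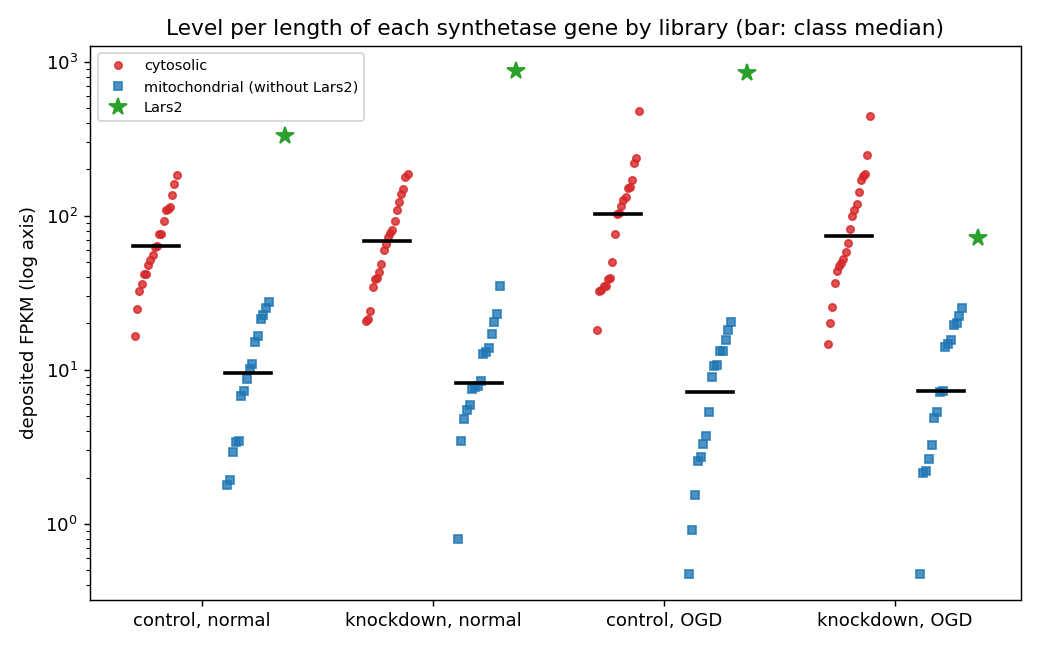
Deposited FPKM (log axis) of each synthetase gene in the 4 libraries, with 1 point per gene, a black bar at each class median and Lars2 as a star. The cytosolic medians run from 63.4 to 103 FPKM and the mitochondrial medians from 7.14 to 9.47 FPKM.

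OGD in control cells went with higher levels of most cytosolic synthetases. Of 20 cytosolic genes 5 were at least 2-fold higher (Sars, Tars, Cars, Nars and Yars) against 9.36% of all 14101 genes, and 0 were 2-fold lower against 22.2%. Their median log2 ratio was 0.66, with 16 above 0, while the median of all genes was -0.11. Among the 16 mitochondrial genes the median was -0.35, and 11 lay below 0, with 4 at least 2-fold lower (Mars2, Rars2 and Aars2 among them) and 1 at least 2-fold higher (Fars2). Of all genes 55.4% lay below 0, and the mitochondrial counts are near the shares of all genes past 2-fold given above, so they are not read as a result about the class. Scaling by total counts in place of TMM moved the median of all genes by -0.23 in this comparison, the cytosolic median to 0.42 and the mitochondrial median to -0.58. In such bulk libraries, more cells of a kind and more RNA per cell cannot be told apart. The summed cytosolic genes took 0.301% of the reads in normal culture and 0.476% under OGD, and the mitochondrial genes 0.0345% and 0.0238%.

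Sars, the seryl-tRNA synthetase (chromosome 3, 108424865 to 108445209 on GRCm38, minus strand), stood at 279, 295, 956 and 740 CPM. Both OGD libraries lay above both normal ones, and the ratio was 3.43 in control cells (3.32 to 3.53) and 2.50 in knockdown cells (2.43 to 2.58). Tars, for threonine (chromosome 15, 11382301 to 11399665, minus strand), stood at 147, 182, 465 and 401 CPM, 3.16-fold higher with OGD in control cells (3.02 to 3.30) and 2.21-fold in knockdown cells (2.13 to 2.30). These were the 2 cytosolic genes past 2-fold in both kinds of cells. Cars, for cysteine (chromosome 7, 143557230 to 143600090, minus strand), stood at 74.0, 70.9, 223 and 104 CPM. The control OGD library was the highest for Cars, with a ratio of 3.01 (2.83 to 3.21) in control cells and 1.46 (1.37 to 1.56) in knockdown cells. Nars, for asparagine, stood at 119, 141, 314 and 257 CPM, a ratio of 2.64 in control and 1.83 in knockdown cells. Yars, for tyrosine, stood at 83.8, 105, 221 and 173 CPM, a ratio of 2.63 in control and 1.64 in knockdown cells.

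Just under the size rule in control cells were Gars, for glycine, at a log2 ratio of 0.98 (242, 273, 479 and 345 CPM), and Iars, for isoleucine, at 0.91. Gars passed it with median-of-ratios scaling, at 1.03. Kars stood at 292, 347, 504 and 458 CPM and Qars, for glutamine, at 126, 135, 205 and 208 CPM, with both OGD libraries above both normal ones for each. Gars, Kars and Qars serve both compartments or have no mitochondrial partner. None of them was past 2-fold here, so leaving them out could not change the count, 5 of 17. The median log2 ratio of those 17 genes was 0.59. At the other end, Rars, for arginine, had the lowest cytosolic ratio, -0.64 in control cells and -0.63 in knockdown cells (101, 121, 64.5 and 78.1 CPM), 1.56-fold lower (1.45 to 1.69) and 1.55-fold lower (1.45 to 1.65). Wars, for tryptophan, Hars, for histidine, and the phenylalanine subunits Farsa and Farsb had log2 ratios between -0.08 and 0.01 in control cells.

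**Figure D2:**
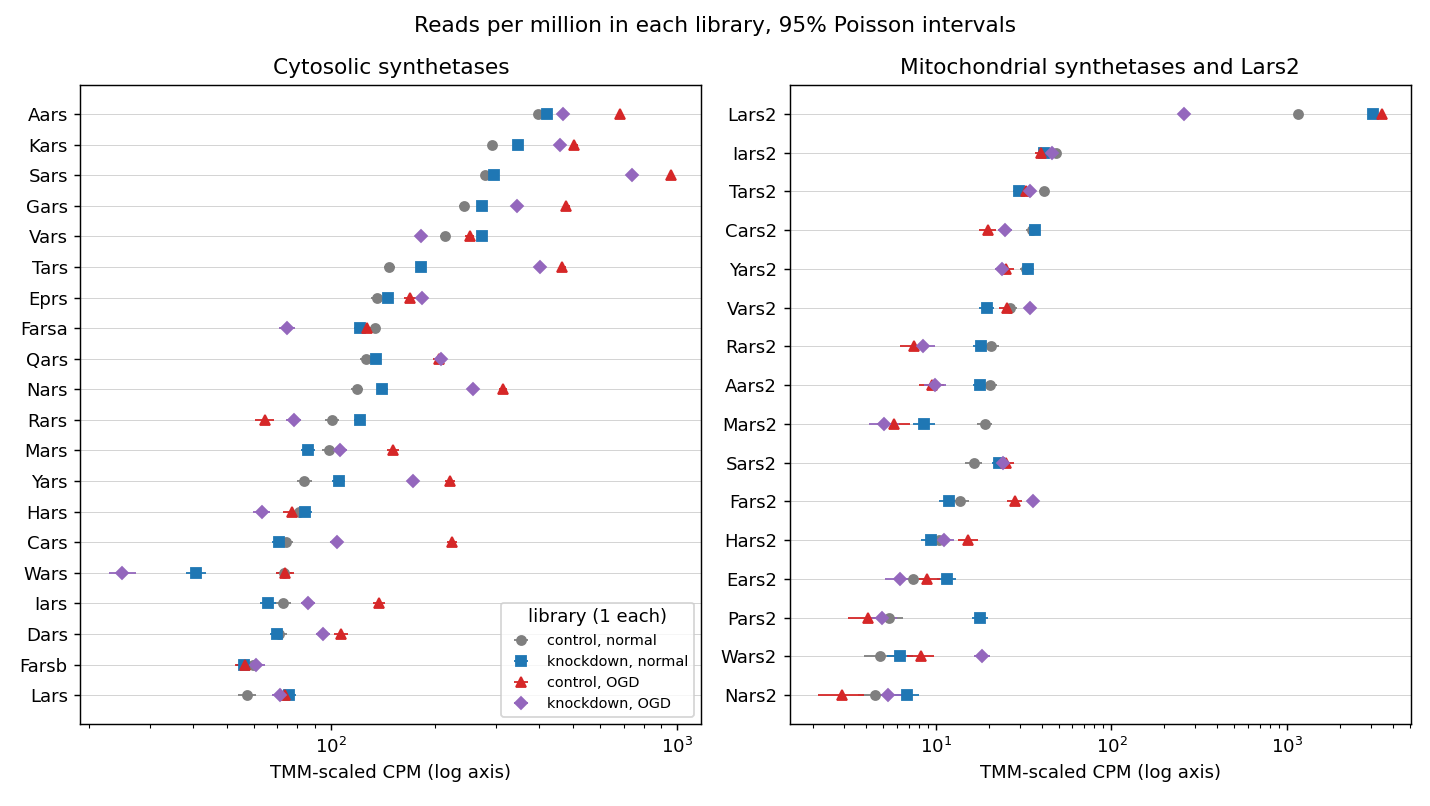
TMM-scaled CPM (log axis) of the 20 cytosolic genes, left, and of 15 mitochondrial genes with Lars2, right, 1 symbol per library with its exact 95% Poisson interval. Sars runs from 279 to 956 CPM, Tars from 147 to 465 CPM, and Lars2 from 258 to 3447 CPM.

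Promoter sequence was read for the amino acid response motif because the synthetase genes that stood higher under OGD include known Atf4 targets. The motif TGATGNAA, or TTNCATCA on the other strand, was searched in the 250 bases upstream of the RefSeq start (GRCm38.p6), where 27 of the 37 members had a window. It lay in 3 of 13 cytosolic members (Tars, Gars and Aars) and in 0 of 14 mitochondrial ones, against 3.45% of all 32851 windows. A member was counted if any of its windows held the motif, while that share counts single windows, so the units differ. The match in Tars covered bases -15 to -8 before the RefSeq start and that in Gars began at base -30. Both stretches are shown on the strand of the gene and end before its first transcribed base in RefSeq and GENCODE, with the match in capitals; Tars is chr15:11399666-11399785 (minus strand) and Gars, which missed the 2-fold rule and was added after its values were seen, is chr6:55037881-55038000 (plus strand).
Tars: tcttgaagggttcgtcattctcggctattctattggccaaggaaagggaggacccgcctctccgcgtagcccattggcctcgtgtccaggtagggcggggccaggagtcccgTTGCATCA
Gars: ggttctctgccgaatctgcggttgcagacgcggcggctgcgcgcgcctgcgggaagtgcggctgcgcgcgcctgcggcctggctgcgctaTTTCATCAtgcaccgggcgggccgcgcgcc
A match of letters is a description and not a site of binding, and Sars, past 2-fold in both kinds of cells, held none in its window.

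In knockdown cells OGD also went with higher cytosolic synthetase levels, with a smaller median. Of the 20 genes 2 were at least 2-fold higher (Sars and Tars) against 19.1% of all 14071 genes, and 0 lower against 16.9%; the count of 2 is thus below the share of all genes. The median log2 ratio was 0.33, with 14 above 0, beside -0.002 for all genes. Across both kinds of cells 13 of the 20 were above 0 in each, 3 below 0 in each (Farsa, Hars and Rars), and 4 of opposite sign (Farsb, Lars, Vars and Wars). For 17 of the 20 the OGD ratio was smaller in knockdown than in control cells, 85.0% against 52.0% of the 13086 genes measured in both, and the median difference was -0.48 beside -0.04. The largest such difference was that of Cars (-1.04). In this comparison 13 of the 14 measured markers of other cell types were at least 2-fold higher, with a median of 3.22, and their part in the ratios of knockdown cells, Fars2 and Wars2 included, was not tested. Farsa had the lowest cytosolic ratio in knockdown cells, -0.70 (134, 122, 127 and 74.6 CPM), with only the knockdown OGD library low. Its partner subunit Farsb stood at 59.6, 56.1, 56.5 and 60.8 CPM, with log2 ratios between -0.08 and 0.11 over the 4 comparisons. From the deposited FPKM the log2 ratios of Farsb ran from -0.25, with OGD in control cells, to 0.43, with knockdown under OGD.

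**Figure D3:**
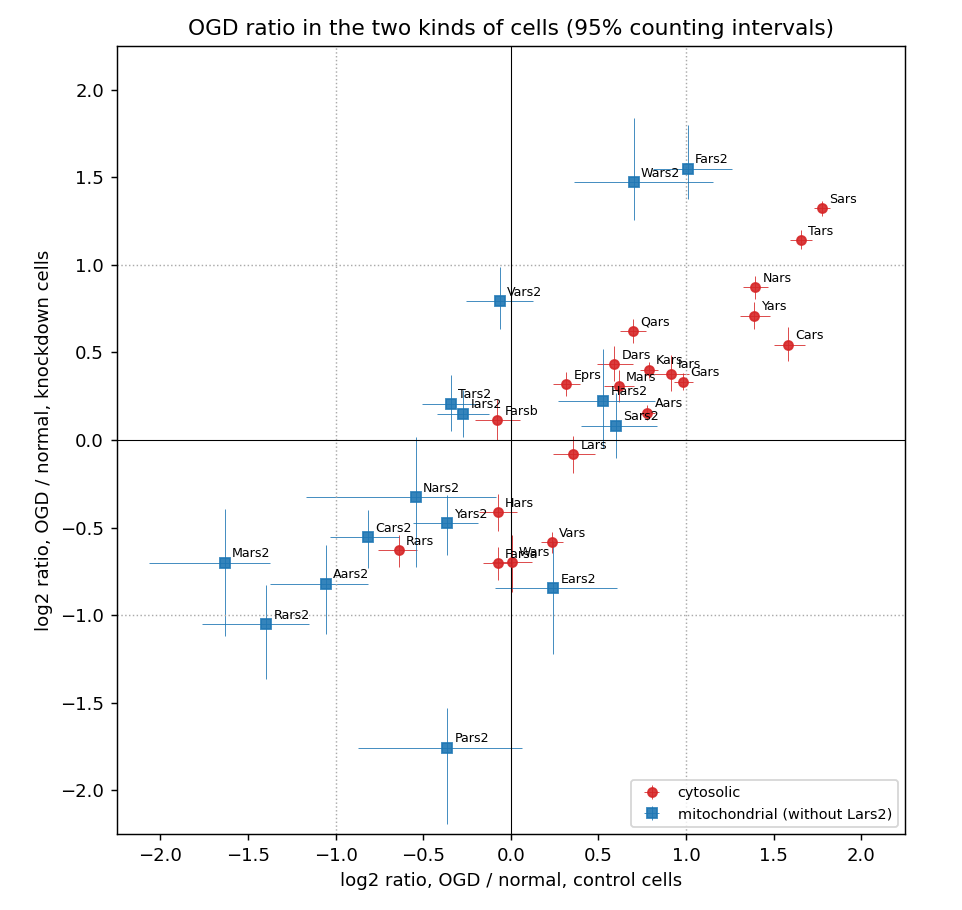
Log2 ratio of OGD to normal culture in control cells (x) and in knockdown cells (y), with 95% counting intervals, dotted lines at 2-fold and 1 point for each of 20 cytosolic and 15 mitochondrial genes. Cytosolic genes reach 1.77 on the x axis and 1.32 on the y axis (Sars); mitochondrial genes spread from -1.63 (Mars2) to 1.01 (Fars2) on x and from -1.76 (Pars2) to 1.55 (Fars2) on y.

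The mitochondrial genes called lower in control cells stood low in both OGD libraries. Rars2, for arginine (chromosome 4, 34614957 to 34660167, plus strand), stood at 20.7, 18.1, 7.54 and 8.48 CPM, and its OGD libraries lay 2.74-fold below normal culture for control cells (2.22 to 3.40) and 2.14-fold below it for knockdown cells (1.78 to 2.58). It was the one mitochondrial gene 2-fold lower in both, although with 2 CPM added its ratio in knockdown cells was -0.94. Mars2 (chromosome 1, 55237177 to 55248470, plus strand) stood at 19.0, 8.61, 5.79 and 5.11 CPM, 3.28-fold lower with OGD in the control pair of libraries (2.60 to 4.18) and 1.69-fold in the knockdown pair (1.32 to 2.17). Aars2, for alanine, stood at 20.2, 17.97, 9.49 and 9.96 CPM, with a log2 ratio of -1.05 in control cells. For these genes the highest value was that of the control library in normal culture, the library with the brain-type reads, whose part in these ratios was not tested. Set against the knockdown library in normal culture instead, control cells under OGD gave -0.54 for Mars2, -0.89 for Aars2 and -1.21 for Rars2, so that 3 mitochondrial genes were 2-fold lower, Rars2 with Pars2 (-2.00) and Nars2 (-1.10). The 5 cytosolic calls all held in that comparison, with Iars added at 1.06.

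Fars2 and Wars2 went the other way. Fars2, for phenylalanine, stood at 13.7, 11.8, 28.1 and 35.5 CPM, 2.05-fold higher with OGD in control cells (1.76 to 2.40) and 3.01-fold in knockdown cells (2.60 to 3.48); under total-count scaling the ratio in control cells was 0.78 and no longer 2-fold. Its exons share 501 bases with Nrn1 on the opposite strand, and Nrn1, a neuritogenesis factor, stood at 106, 116, 167 and 226 CPM; its part in the Fars2 reads was not tested. Wars2, for tryptophan, stood at 4.84, 6.28, 8.19 and 18.3 CPM from 95, 135, 126 and 359 reads, with the knockdown OGD library highest, 2.92-fold above knockdown cells in normal culture (2.39 to 3.58). The deposited FPKM of Wars2 (1.94, 8.50, 2.55 and 5.31) put the knockdown library in normal culture highest, and the length that reads and FPKM together imply for Wars2 ranged from 765 to 3546 bases over the libraries. In knockdown cells 2 mitochondrial genes were at least 2-fold higher (Fars2 and Wars2) and 2 lower (Pars2 and Rars2), against 19.1% and 16.9% of all genes, and the class median was -0.40 with 9 of 16 below 0. The mitochondrial class thus had a median below that of all genes in both kinds of cells, with genes well above and well below it.

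Enzymes for the same amino acid in the 2 compartments were compared as 15 pairs over 14 amino acids. The cytosolic gene had the higher OGD log2 ratio in 11 pairs in control cells and in 10 in knockdown cells. The difference was at least 1 in both for 7 pairs, of which 5 had the cytosolic gene higher: Cars over Cars2 (2.40 and 1.10), Mars over Mars2 (2.25 and 1.01), Nars over Nars2 (1.94 and 1.20), Yars over Yars2 (1.76 and 1.18) and Sars over Sars2 (1.17 and 1.24). Among these, Cars2 stood at 35.2, 36.5, 19.8 and 24.7 CPM and Yars2 at 32.6, 33.5, 25.2 and 24.0 CPM, each lower in both OGD libraries. Nars2 stood at 4.49, 6.84, 2.93 and 5.36 CPM. The length that its reads and FPKM together imply ranged from 1368 to 2838 bases, and from the FPKM its OGD ratio in control cells was -1.48 in place of -0.54. Sars2 stood at 16.4, 22.9, 25.2 and 24.2 CPM, with only the control library in normal culture low, and Mars, the cytosolic methionine enzyme, at 98.5, 85.8, 151 and 106 CPM. Phenylalanine was the reverse, with Fars2 above Farsa (-1.08 and -2.25) and above Farsb (-1.09 and -1.43), those 2 pairs sharing Fars2.

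The knockdown in normal culture went with small differences in the cytosolic class. Of 20 genes 0 were at least 2-fold higher, against 6.25% of all 14554 genes, and 0 lower, against 16.3%. The median was 0.09 beside -0.03 for all genes, and 19 of the 20 lay within 0.5 of 0. The exception was Wars (chromosome 12, 108860030 to 108894174, minus strand), whose enzyme is also known as an interferon-induced protein. It stood at 73.3, 40.7, 73.6 and 24.97 CPM, with both knockdown libraries below both control ones, 1.80-fold lower in normal culture (1.65 to 1.96) and 2.95-fold lower under OGD (2.65 to 3.28). Lars, for leucine, had the highest cytosolic ratio, 0.39 (57.4, 75.6, 73.6 and 71.4 CPM), with only the control library in normal culture low.

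In normal culture the knockdown put 1 of the 16 mitochondrial genes 2-fold higher and 1 lower, no more than the 6.25% and 16.3% of all genes, and the class median was -0.15. Pars2, for proline (chromosome 4, 106651069 to 106655282, plus strand), stood at 5.41, 17.9, 4.10 and 4.95 CPM from 106, 385, 63 and 97 reads. Only the knockdown library in normal culture was high, 3.32-fold above control cells (2.67 to 4.15) and 3.62-fold above knockdown cells under OGD (2.89 to 4.57). Mars2 was 2.20-fold lower (1.84 to 2.64), a call that was lost with 2 CPM added (-0.98) or from the FPKM (-0.82). This is the comparison whose reference is the control library with the brain-type reads.

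Under OGD the knockdown went with lower levels of most cytosolic synthetases. Of 20 genes 16 were below 0 and 2 at least 2-fold lower (Wars and Cars), against 4.23% of all 13388 genes, and 0 at least 2-fold higher, against 10.7%. The median was -0.32 beside -0.0007 for all genes. Total-count scaling moved the median of all genes by 0.19 here and the cytosolic median to -0.12, and Cars, 2.15-fold lower (2.03 to 2.27), then missed the rule at -0.90. Rars had the highest cytosolic ratio at 0.27. From the FPKM the cytosolic median was -0.08. The mitochondrial median was 0.12, between 0.08 and 0.39 over the alternatives, with 11 of 16 above 0 and 1 at least 2-fold higher, Wars2 at 2.24-fold (1.82 to 2.76), which fell short with 2 CPM added (0.997) or from the FPKM (0.93), where Nars2 passed instead (1.15). The lowest mitochondrial ratio was that of Ears2, for glutamate, -0.48 (7.45, 11.6, 8.91 and 6.23 CPM), with the knockdown library in normal culture high. The summed brain-type markers were 34.8 and 258 CPM in the 2 OGD libraries, and their part in these ratios was not tested.

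**Figure D4:**
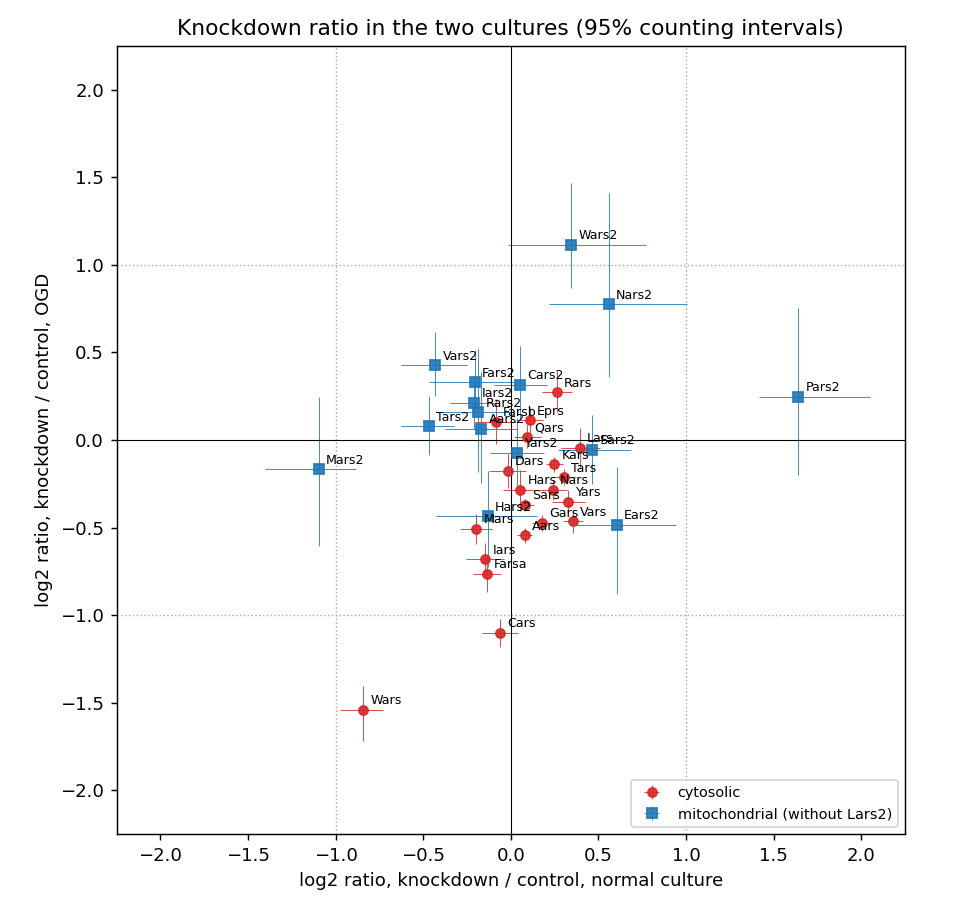
Log2 ratio of knockdown to control cells in normal culture (x) and under OGD (y), for 20 cytosolic and 15 mitochondrial genes, with 95% counting intervals and dotted lines at 2-fold. Cytosolic genes lie between -0.84 (Wars) and 0.39 (Lars) on x and between -1.54 (Wars) and 0.27 (Rars) on y; Pars2 lies at 1.64 on x and Wars2 at 1.12 on y.

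Within the cytosolic class, the genes past 2-fold with OGD in control cells were all outside the multisynthetase complex. Of the 8 enzymes of the complex (Dars, Eprs, Iars, Kars, Lars, Mars, Qars and Rars) 0 were past 2-fold, against 9.36% of all genes higher. Their median was 0.60, while of the 12 others 5 were past 2-fold and the median was 0.88. A count of 0 among 8 is near the share of all genes, so it is not read as a result about the complex. In knockdown cells the medians were 0.35 and 0.25, the other order. Eprs, the fused glutamate and proline enzyme, stood at log2 ratios of 0.32 in both kinds of cells. The scaffold genes Aimp1, Aimp2 and Eef1e1 were between 0.43 and 0.69 with OGD in control cells. In knockdown cells they were 0.02, -0.18 and -1.24, Eef1e1 standing at 35.6, 61.6, 48.1 and 25.7 CPM. By structural class, 2 of 9 class I and 3 of 10 class II enzymes were past 2-fold with OGD in control cells, beside the same 9.36%. Their medians were 0.62 and 0.78, and Eprs, which holds both kinds, was left out of that split.

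Genes of the Atf4 axis outside the synthetases had larger OGD ratios. Of 20 listed genes 16 were at least 2-fold higher (9.36% of all genes) and 0 lower (22.2%) in control cells, with a median of 1.90. In knockdown cells 12 were higher (19.1% of all genes) and 1 lower (16.9%), with a median of 1.14. The lower gene was Slc7a11, the cystine carrier, at -1.01. Atf4 itself stood at 431, 544, 1733 and 1307 CPM, and the stress-induced factors Atf3 and Ddit3 had ratios of 3.19 and 2.74 in control cells and 3.56 and 2.08 in knockdown cells. Chac1, which degrades glutathione, had 3.10 and 1.77, and Ppp1r15a, which restores translation initiation, 2.92 and 3.20. The knockdown ratio under OGD had a list median of -0.44, and 14 of the 20 lay below 0. Of the 20, 1 was at least 2-fold lower, near the 4.23% of all genes, and 0 were higher, against 10.7%. The lower gene was Slc7a5, a carrier of large neutral amino acids (-1.20). In normal culture the median was 0.28, with 0 past 2-fold either way, against 6.25% of all genes higher and 16.3% lower. These lists were drawn up with earlier results of the same libraries known and are not independent evidence of a direction.

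Other charging and editing factors were mixed; the shares of all genes past 2-fold were 9.36% higher and 22.2% lower with OGD in control cells, 19.1% and 16.9% in knockdown cells, and 10.7% and 4.23% with knockdown under OGD. With OGD in control cells 4 of 16 were at least 2-fold higher (among them Sepsecs, which completes selenocysteinyl-tRNA, at 1.25; Gatb, a subunit of the mitochondrial transamidase, at 1.18; and Elac1, a tRNA nuclease, at 1.15) and 1 was lower (Dtd2, which clears mischarged tRNA, at -1.98). In knockdown cells 1 was higher (Gatb, 1.09) and 4 lower: Gatc, the small transamidase subunit, at -1.90, Mtfmt, which formylates the mitochondrial initiator tRNA, at -1.26, Aarsd1, an editing protein related to alanyl-tRNA synthetase, at -1.10, and Qrsl1, the catalytic transamidase subunit, at -1.02. The 3 transamidase subunits thus had ratios of different sign. Under OGD the knockdown library was at least 2-fold lower for Elac1 (-1.41) and Gatc (-1.12) and higher for Dtd2 (1.17). With knockdown in normal culture 0 of 16 were past 2-fold, against 6.25% of all genes higher and 16.3% lower.

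Of 8 cytosolic elongation and termination factors, Eef2, the translocase, was the one past 2-fold with OGD in control cells (2227, 2235, 4721 and 4385 CPM; 1.08), and Eif5a the one past it in knockdown cells (-1.52). The shares of all genes past 2-fold with OGD were 9.36% higher and 22.2% lower in control cells, and 19.1% and 16.9% in knockdown cells. Of 10 measured mitochondrial translation factors, Mrrf, the ribosome recycling factor, was higher at 1.30 in control cells, and Guf1, an elongation factor, and Mtif2, an initiation factor, were lower at -2.21 and -1.25. In knockdown cells Mtrf1, a release factor homolog, and Tsfm, the exchange factor of Tufm, were lower at -1.24 and -1.05. The counts of called factors in both lists are near or below the shares of all genes and are not read as results about these factors. Guf1 stood at 10.2, 4.84, 1.82 and 7.86 CPM, so the knockdown library was 2.11-fold lower in normal culture and at a log2 ratio of 1.85 under OGD. The median of the mitochondrial factors was 0.15 and 0.27 with OGD in control and knockdown cells, above 0 where the mitochondrial synthetases had -0.35 and -0.40.

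Lars2, the mitochondrial leucine enzyme (chromosome 9, 123366927 to 123462666, plus strand), had the highest level of the mitochondrial genes in every library and the lowest ratio of any member in 2 comparisons. It stood at 1151, 3089, 3447 and 258 CPM from 22567, 66345, 53024 and 5044 reads, and at 331, 868, 839 and 72.1 FPKM, between 2.85 and 40.8 times the next highest mitochondrial gene of the same library. The knockdown library was 2.68-fold above control in normal culture (2.64 to 2.72) and 13.4-fold below it under OGD (13.0 to 13.8). With OGD, Lars2 was 2.99-fold higher in control cells (2.95 to 3.04), whereas for knockdown cells it was 12.0-fold lower (11.7 to 12.3). The ribosomal RNA repeat gene CT010467.1 stood at 9554, 23182, 28947 and 1767 CPM, the same order of libraries, and the 4 listed repeat genes together took 1.84%, 4.38%, 4.85% and 0.368% of reads. Lars2 had 12.0, 13.3, 11.9 and 14.6 reads for each 100 of CT010467.1, a ratio that varied far less than either gene. The annotated transcripts of Lars2 share 0 stretches of 25 bases with those of CT010467.1, Gm42418, AY036118 or Gm26917, and 28 with Gm15564. Set against the knockdown library in normal culture, Lars2 in control cells under OGD was at 0.16. How many of its reads came from the leucine enzyme's own message was not tested; Lars, the cytosolic leucine enzyme, was between 57.4 and 75.6 CPM in all 4 libraries.

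**Figure D5:**
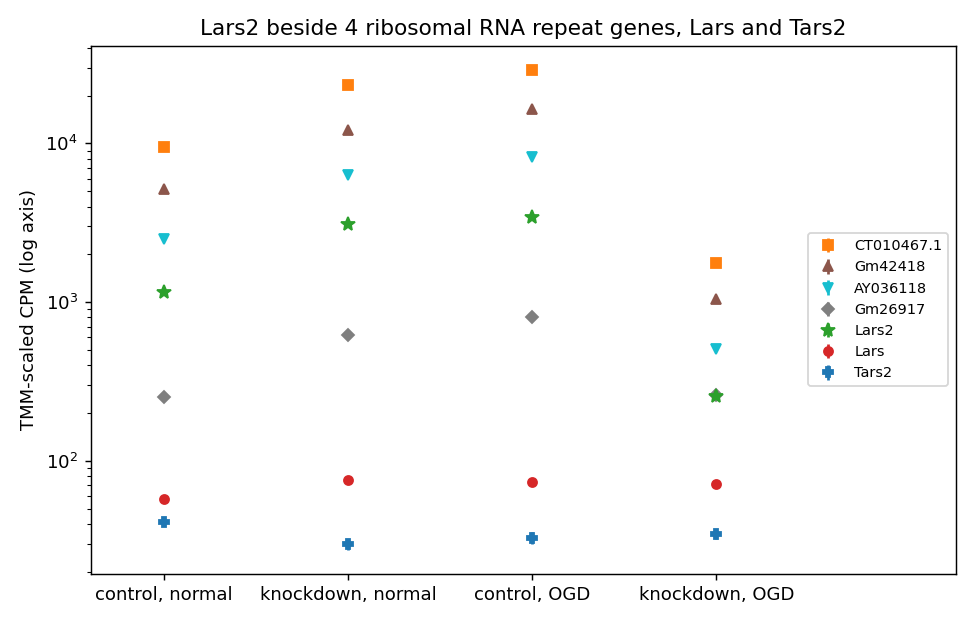
TMM-scaled CPM (log axis) of Lars2, 4 ribosomal RNA repeat genes, Lars and Tars2 in the 4 libraries, with 95% Poisson intervals smaller than most symbols. Lars2 runs from 258 to 3447 CPM and CT010467.1 from 1767 to 28947 CPM in the same order of libraries, while Lars stays between 57.4 and 75.6 CPM.

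Several members share exon bases with a neighbour, and whether counting used strand is not given in the sources used here. On opposite strands Hars and Hars2 share 195 bases, Iars2 shares 2034 with Rab3gap2, Cars2 422 with Naxd, and Mars 68 with Ddit3. Rab3gap2 had OGD log2 ratios of 1.53 and 1.31 where Iars2 had -0.27 and 0.15. Aars shares 1326 bases with Exosc6 on the same strand, and Iars shares 377 stretches of 50 bases with the pseudogene Gm4849, so values of these members are uncertain to that extent.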

How the data were processed

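RNA from 4 HT22 cultures was profiled, 1 library per group. Per the labels' protocols, RNA was broken to short fragments and 1 cDNA strand was marked with deoxy-UTP. TopHat2 and the build mm10 are named in the submitters' processing notes. The counting program, annotation and use of strand: not given in the sources used here. The authors deposited, per the file headers, size-factor scaled counts (a signal per library), a fold ratio, its log2, p-value and adjusted p-value for 4 pairs of libraries; the deposited ratios and p-values were not used. Unnamed numbered columns of the deposited tables were read as FPKM from their values. Whole reads were recovered from the scaled counts (100% whole within 1e-06 of a read). Value columns that no sample claims numbered 0.

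TMM factors came from edgeR 4.0.16 (R 4.3.3), and were 1.05, 1.03, 0.893 and 1.03. Ratios used 0.5 CPM added and a floor of 20 reads in the higher library, with Python 3.11.15, numpy 2.4.6, pandas 2.3.3, scipy 1.17.1 and matplotlib 3.10.9. Intervals are 95%, exact Poisson for levels and exact conditional binomial for ratios. The functions were tested on simulated data. Names and coordinates came from GENCODE mouse release 21 and promoters from RefSeq. Members and gene lists were chosen with earlier results of these data known. Named with values in all libraries were members past 2-fold, the highest and lowest of each class in each comparison, Gars, Kars, Qars, Lars2 and pairs differing by at least 1 in both kinds of cells; of other lists, at most 4 members past 2-fold per comparison. The plan assumed protein sequences, and none was used here. Results of 1 mitochondrial member and of 1 other listed gene are not reported here; both remain in the counts and medians.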

Additional observations from a re-analysis of the deposited data

Results flagged for a closer look

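Members are given here whose log2 ratios had opposite signs in the 2 settings, with both 95% counting intervals excluding no difference and the same signs under TMM, total-count and median-of-ratios scaling. With 1 library per group the differences were not tested. For the knockdown ratio, from normal culture to OGD, the log2 ratio was lower under OGD by the following amounts, given as signed differences: Aars -0.62, Gars -0.65, Nars -0.52, Sars -0.45, Tars -0.51, Vars -0.82 and Yars -0.68 among cytosolic genes, Ears2 -1.09 among mitochondrial genes, and Lars2 -5.16. It was higher under OGD for Iars2 (0.42) and Vars2 (0.86). The 7 cytosolic members had a positive knockdown ratio in normal culture and a negative one under OGD in all 3 scalings of the reads. The deposited FPKM turned the sign for Aars (-0.011) and Sars (-0.033) in normal culture and for Yars (0.11) under OGD. It also left Tars (-0.011) and Nars (-0.083) close to no difference under OGD. There total-count scaling moved the median of all genes by 0.19, close in size to the TMM ratio of Tars (-0.21). The negative sign of Tars under OGD is therefore held only narrowly. Vars, for valine, had the largest of these 7 differences, from 0.36 to -0.46.

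For the OGD ratio, from control to knockdown cells, the difference was 0.42 for Iars2, 0.55 for Tars2 and -5.16 for Lars2. Iars2 and Lars2 recur because the difference between the knockdown ratios and that between the OGD ratios are the same quantity. Tars2, the mitochondrial threonine enzyme, stood at -0.34 in control cells and 0.21 in knockdown cells, opposite in order to Tars.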

How the results depend on the processing

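Each comparison rests on 1 library per group, so no replicate could be left out, and the intervals hold no variation between cultures. No paired analysis was possible because each group holds 1 library and no test was made. The 8 class medians kept their sign under total counts, median-of-ratios scaling, 0.1 or 2 CPM added, no floor, a floor of 100 reads, the FPKM, changed class membership and the 2 alternatives added after the data were seen (TMM without 1642 genes that stood highest in the library of control cells in normal culture, and that library replaced as reference for control cells under OGD). Counts of genes past 2-fold moved by more than 1.5 times as follows. In normal culture, the FPKM put 2 mitochondrial genes higher and 0 lower in knockdown cells, 1 cytosolic gene lower with knockdown under OGD, and 0 and 1 mitochondrial genes higher with OGD in control and knockdown cells. With 2 CPM added, 0 mitochondrial genes were lower with knockdown in normal culture, 0 higher with knockdown under OGD, 0 higher with OGD in control cells and 1 lower with OGD in knockdown cells. Total counts gave 1 cytosolic gene lower with knockdown under OGD and 0 mitochondrial genes higher with OGD in control cells, as did the added TMM alternative for the latter (0). With Lars2 in the class, 2 mitochondrial genes were higher with knockdown in normal culture, 1 lower with it under OGD, and 2 higher with OGD in control cells. Of single members past 2-fold, Wars2 alone reversed, to -0.63 from the FPKM for OGD in knockdown cells. Apart from what the settings themselves change, the cause of these moves was not tested. Depth limits the mitochondrial ratios most, down to 45 reads for Nars2 in control cells under OGD.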
